A study of Homo sapiens with 12 samples.

Results

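Histone and linker histone genes were followed through 12 RNA libraries of SKOV-3, a widely used cell line from a human ovarian adenocarcinoma. Members were the rows of the deposited count table whose gene symbol begins with the current names of linker histone (H1), core histone (H2A, H2B, H3, H4), H2A.Z or macroH2A genes, or is H2AX or H2AJ, which gave the 109 genes described here, of 59498 in the table. The 4 groups of 3 libraries were cisplatin-resistant SKOV-3 CDDP cells with a double knockout (dKO) of KDM5A and KDM5B, resistant cells without the knockout, parental cells with the same double knockout, and parental cells, labelled wild type and without drug resistance. The series title places KDM5 proteins, which remove methyl groups from lysine 4 of histone H3, in cisplatin resistance. The comparisons therefore ask which histone genes set the resistant line apart, and what the knockout changes in each line. The labels name no clone, culture or batch, so p-values cover only the spread among the libraries sequenced, which may be technical.

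Nucleosomes wrap DNA around core histones, and linker histones of the H1 family bind where the DNA enters and leaves. Replication-dependent histone genes lie in clusters and are transcribed in S phase, when new DNA is packaged; their mRNAs normally end in a stem-loop bound by SLBP and carry no poly(A) tail. Replacement and variant genes, such as those of H3.3, H2A.Z and macroH2A, lie apart, make polyadenylated mRNAs and are used outside S phase as well. These libraries were made from RNA captured by its poly(A) tail, a step that loses most RNA without a tail, so the levels of replication-dependent genes given here are not those of their whole mRNA.

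By symbol, 66 members were replication-dependent genes, 16 were variant or replacement genes, 25 were pseudogenes and 2 were non-coding neighbours named after a histone gene. Of the 64 replication-dependent genes placed by the annotation (GENCODE release 29, GRCh38), 53 were on chromosome 6 and 11 on chromosome 1. A total of 18 members had no read in any library and 32 had reads in all 12. The filter on low counts left 37 members for testing: 21 replication-dependent genes, 11 variant or replacement genes, 3 pseudogenes and 2 non-coding neighbours. The 72 others held at most 79 reads each over the 12 libraries and 1033 of the 338359 reads of all members. Variant and replacement genes held 97.3% of the members' reads, H3-3B alone 43.2%, and replication-dependent genes 2.27%.

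Stem-loops and promoters are shown first because these sequences differ between the classes of histone gene. A stem-loop was searched as 6 bases starting with GG, a loop of 4 bases starting with TT and then A, C or T, and 6 bases complementary to the first arm. It occurred in the protein-coding transcripts of 96 of 19684 protein-coding genes (0.488%), in 26 of 64 replication-dependent members and in 4 of 16 variant or replacement members. Those 4 were H2AX, H2BU1, H3-4 and H4-16, which were put in that class by symbol and not by the end of their mRNA. Among the members that changed below it was found in 3, and it is shown with H2AX, whose gene can make both kinds of mRNA end, with the paired arms in capitals.
H2BU1: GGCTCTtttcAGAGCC
H4C8: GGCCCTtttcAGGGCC
H4C9: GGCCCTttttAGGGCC
H2AX: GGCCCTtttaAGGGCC
The annotated transcript went on past the stem-loop for 1917 bases in H2BU1, 212 bases in H4C9, 1044 bases in H2AX, and, in its longest form, 630 bases in H4C8. Of the 21 tested replication-dependent genes, 12 held a stem-loop, and in 10 of these the annotation reached more than 200 bases beyond it; of those with too few reads to test, 14 held one and 6 reached that far. The annotated transcripts of H1-2, H2BC12, H2AC20 and H3C4 hold the coding length only, so no stem-loop could be found in them. The same holds for many replication-dependent genes that were not tested, among them H1-1, H1-3 and H1-5. The 26 of 64 thus counts only stem-loops that the annotation reaches, and the rest cannot be taken to lack one.

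Promoters of 300 bases, 250 before the start of transcription to 50 after it, were taken from RefSeq (GRCh38.p14), which gave 73 of the 82 protein-coding members and 29 of the 32 tested. Searched on both strands, CCAAT, the letters bound by the factor NF-Y, was in 85.2% of 61 replication-dependent promoters against 39.7% of the promoters of 27305 genes, and TATAAA was in 68.9% against 14.0%. The octamer ATTTGCAT, bound by POU2F1 in H2B promoters, was in 42.6% of replication-dependent promoters against 2.19%, and in 14 of the 17 promoters of H2B genes. The H1 box AAACACA was in 14.8% against 6.94%, and in all 6 promoters of replication-dependent H1 genes. Motifs may overlap, and a match describes letters and not a bound site. The promoters shown are those of 2 genes that were higher in resistant cells, H1-2 and H2BC12, and of H3-3B, which was lower, with these motifs in capitals.
H1-2, chr6:26056421-26056720, minus strand: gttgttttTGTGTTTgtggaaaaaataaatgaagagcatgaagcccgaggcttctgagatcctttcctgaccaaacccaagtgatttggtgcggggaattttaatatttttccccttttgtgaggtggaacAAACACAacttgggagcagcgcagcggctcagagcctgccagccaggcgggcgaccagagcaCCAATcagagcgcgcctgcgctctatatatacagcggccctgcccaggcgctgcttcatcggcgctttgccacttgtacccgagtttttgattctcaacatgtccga
H2BC12, chr6:27146806-27147105, minus strand: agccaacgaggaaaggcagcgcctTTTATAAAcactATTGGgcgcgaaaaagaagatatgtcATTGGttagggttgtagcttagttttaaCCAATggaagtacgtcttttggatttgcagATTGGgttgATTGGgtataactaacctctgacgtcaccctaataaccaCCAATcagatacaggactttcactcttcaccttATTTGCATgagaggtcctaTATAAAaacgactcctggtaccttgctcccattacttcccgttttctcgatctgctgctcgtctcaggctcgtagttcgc
H3-3B, chr17:75779730-75780029, minus strand: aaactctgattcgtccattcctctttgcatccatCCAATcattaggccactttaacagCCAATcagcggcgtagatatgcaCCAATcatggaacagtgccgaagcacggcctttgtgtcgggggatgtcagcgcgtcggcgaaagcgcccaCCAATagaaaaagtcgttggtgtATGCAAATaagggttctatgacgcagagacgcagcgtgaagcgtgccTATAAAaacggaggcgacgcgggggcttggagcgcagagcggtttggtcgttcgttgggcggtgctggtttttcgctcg
The H1-2 promoter held 2 H1 boxes and 1 CCAAT, the H2BC12 promoter 6 CCAAT, 3 TATAAA and 1 octamer, and the H3-3B promoter 4 CCAAT, 1 octamer and 1 TATAAA. H2BC12 and H3-3B, which moved in opposite directions, both held CCAAT, octamer and TATAAA letters, while H1-2 held neither the octamer nor TATAAA. Only these exact letters were searched, and the H1-2 sequence holds tatatata, which the search does not take. Whether these motifs go with the direction of change was not tested. The promoters of MACROH2A2 and H4C8 held none of the 4 motifs.

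Total counts ran from 15659352 to 19706754 per library. The KDM5A transcript averaged 14.8 ± 2.8 reads per 1e6 counted (CPM, scaled to the effective library size) in resistant dKO cells, against 37.4 ± 3.5 in resistant cells, and 19.7 ± 3.6 in parental dKO cells, against 37.3 ± 5.6 in parental cells (SD, n = 3). All 6 knockout libraries lay below every control of their background (two-sided exact permutation test within backgrounds, p = 0.005, the smallest it can give), whereas for KDM5B 2 of 6 did (p = 0.46, exact permutation). KDM5B averaged 56.7 ± 28.2 CPM in resistant dKO cells, against 76.6 ± 36.1 in resistant cells, and 53.8 ± 26.9 in parental dKO cells, against 57.9 ± 19.3 in parental cells (SD, n = 3). A loss of its transcript in the libraries labelled dKO was thus not detected by this test, which did not pair libraries by replicate number. A gene count does not show whether an edited transcript makes protein. Of 12 ovarian epithelial markers, 11, 8, 11 and 10 averaged at least 1 CPM in resistant dKO, resistant, parental dKO and parental cells; WT1, MUC16, MSLN and FOLR1 were below it in resistant cells. Of 8 fibroblast markers, 5, 4, 3 and 1 did; their sum was 2518 to 4438 CPM in resistant dKO, 349 to 955 in resistant, 2.56 to 27.9 in parental dKO and 1.97 to 8.23 in parental libraries, with COL1A1 at a mean of 3651 CPM in resistant dKO and 671 CPM in resistant cells. The epithelial sum was 1441 to 1955 CPM in resistant dKO and 1813 to 2606 in resistant libraries, against 497 to 1411 in parental dKO and 641 to 1183 in parental libraries. By gene, 3 of the 12 epithelial markers were called higher and 5 lower in resistant than in parental cells (median log2 fold change -0.46). Among dKO libraries 3 were higher and 4 lower in the resistant line (median -0.88). Of 7 fibroblast markers tested, 4 were higher and 1 lower in both comparisons. Over all genes tested, 28% were called without the knockout and 23.9% among dKO libraries. The part of these marker differences in the histone results was not tested. No marker of endothelium, leukocytes or the male germ line, where testis histones are made, averaged 1 CPM in any group. The sum over 27 S-phase genes was highest in replicate 3 of every group, at 3084 to 4031 CPM, against 890 to 2158 CPM in the other 8 libraries.

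Between resistant and parental cells without the knockout, 7 of the 37 tested histone genes changed, 6 higher and 1 lower. Of all 17947 genes tested, 28% changed, 15.2% higher and 12.8% lower, so 7 of 37 is not above the share over all genes. The H3.3 gene H3-3B was lower in resistant cells, while the linker histone H1-2, the macroH2A gene MACROH2A2, the core histone genes H2BC12, H4C8 and H4C9, and H2BU1 were higher. Calls are from edgeR's quasi-likelihood test with Benjamini-Hochberg adjustment over all genes tested at 0.05, from 1 fit of all 12 libraries, and every adjusted p below is from it. In bulk RNA, fewer cells that make a transcript and less transcript per cell cannot be told apart.

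**Figure D1:**
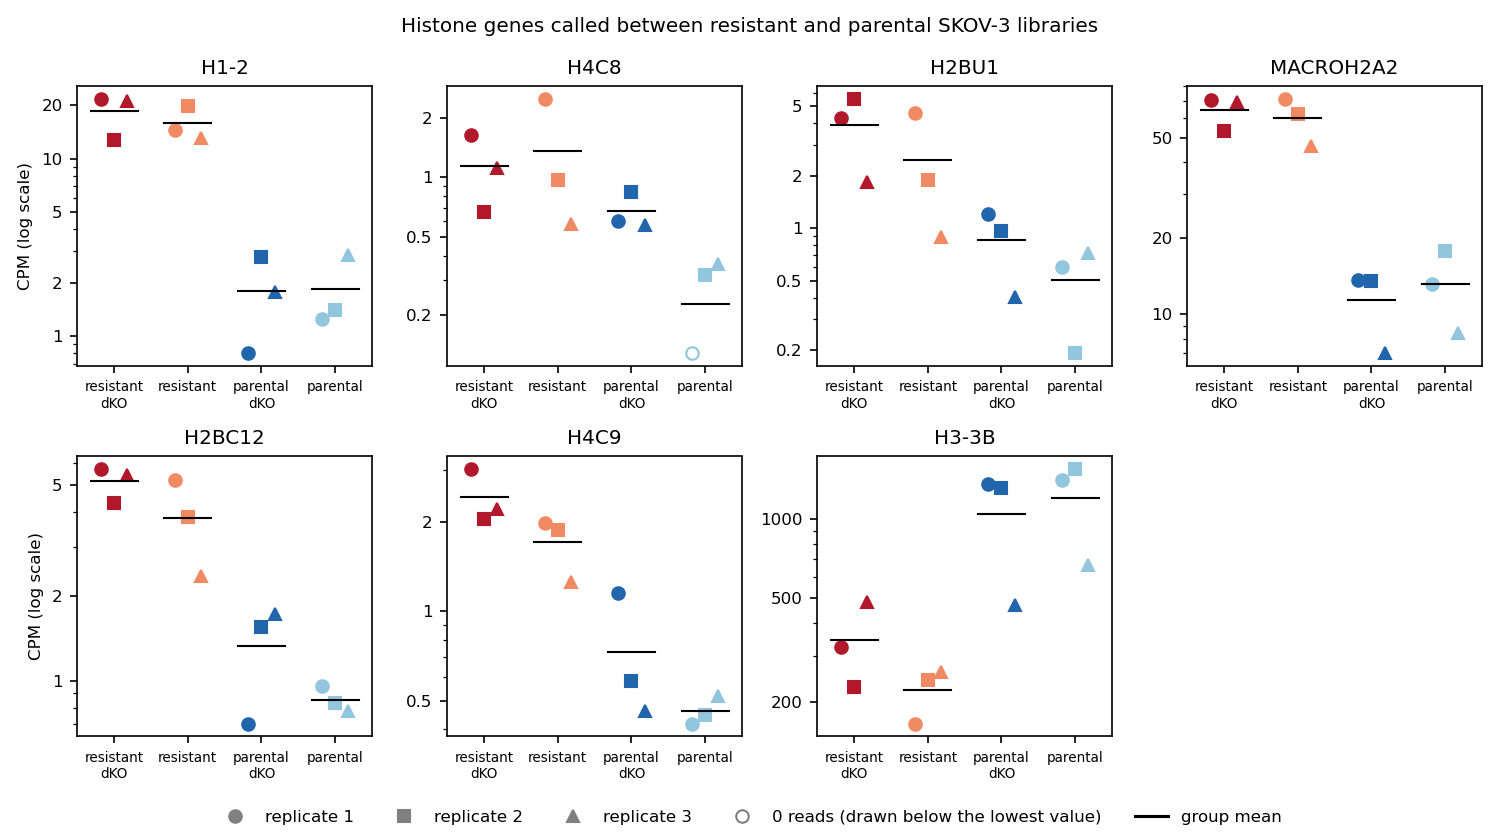
Levels in CPM on a log scale of the 7 histone genes that changed between resistant and parental cells, by group and library; points are libraries, symbols give the replicate number, lines the group means, and open symbols libraries with 0 reads. In both pairs of groups the 6 genes from H1-2 to H4C9 sit higher in resistant cells on average, and H3-3B sits lower.

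H1-2 (ENSG00000187837, chromosome 6, 26055787 to 26056428), a replication-dependent linker histone gene of the large cluster, was higher in the resistant line. Its levels were 14.5, 19.9 and 13.0 CPM in resistant libraries, against 1.25, 1.41 and 2.85 CPM in parental libraries, a mean 8.6 times as high with no overlap. Among dKO libraries they were 21.7, 12.7 and 21.2 CPM in resistant dKO libraries, against 0.802, 2.78 and 1.78 CPM in parental dKO libraries. The log2 fold changes were 3.09 ± 0.48 (SE, adjusted p = 0.000627) without the knockout and 3.38 ± 0.49 (adjusted p = 0.000483) with it.

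H1-10 (ENSG00000184897), a replacement linker histone gene, had 42.6, 105 and 58.2 CPM in resistant libraries, against 172, 199 and 90.7 CPM in parental libraries; the groups overlapped and the log2 fold change of -1.17 ± 0.44 missed the threshold (adjusted p = 0.0661). It passed in some alternatives, among them DESeq2 (adjusted p = 0.0421). Between the dKO groups it had 87.5, 67.9 and 80.8 CPM in resistant dKO libraries, against 125, 183 and 55.3 CPM in parental dKO libraries (log2 fold change -0.62 ± 0.44, adjusted p = 0.328).

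Set against each other, the 9 linker histone genes described here divided their reads differently in the 2 lines, as shares of reads that are not corrected for gene length. H1-2 held 15.6% to 20.5% in resistant dKO libraries and 15.9% to 25.2% in resistant libraries, against 0.637% to 3.05% in parental dKO and 0.700% to 2.99% in parental libraries. H1-10 held 78.2% to 83.7% in resistant dKO libraries and 73.7% to 83.8% in resistant libraries, against 94.8% to 99.0% in parental dKO and 95.1% to 98.9% in parental libraries. Both shares thus lay apart between the 6 libraries of the resistant line and the 6 of the parental line. The summed reads of these 9 genes were 57.8, 125 and 72.3 CPM in resistant libraries, against 174, 201 and 95.4 CPM in parental libraries, and the groups overlapped.

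**Figure D2:**
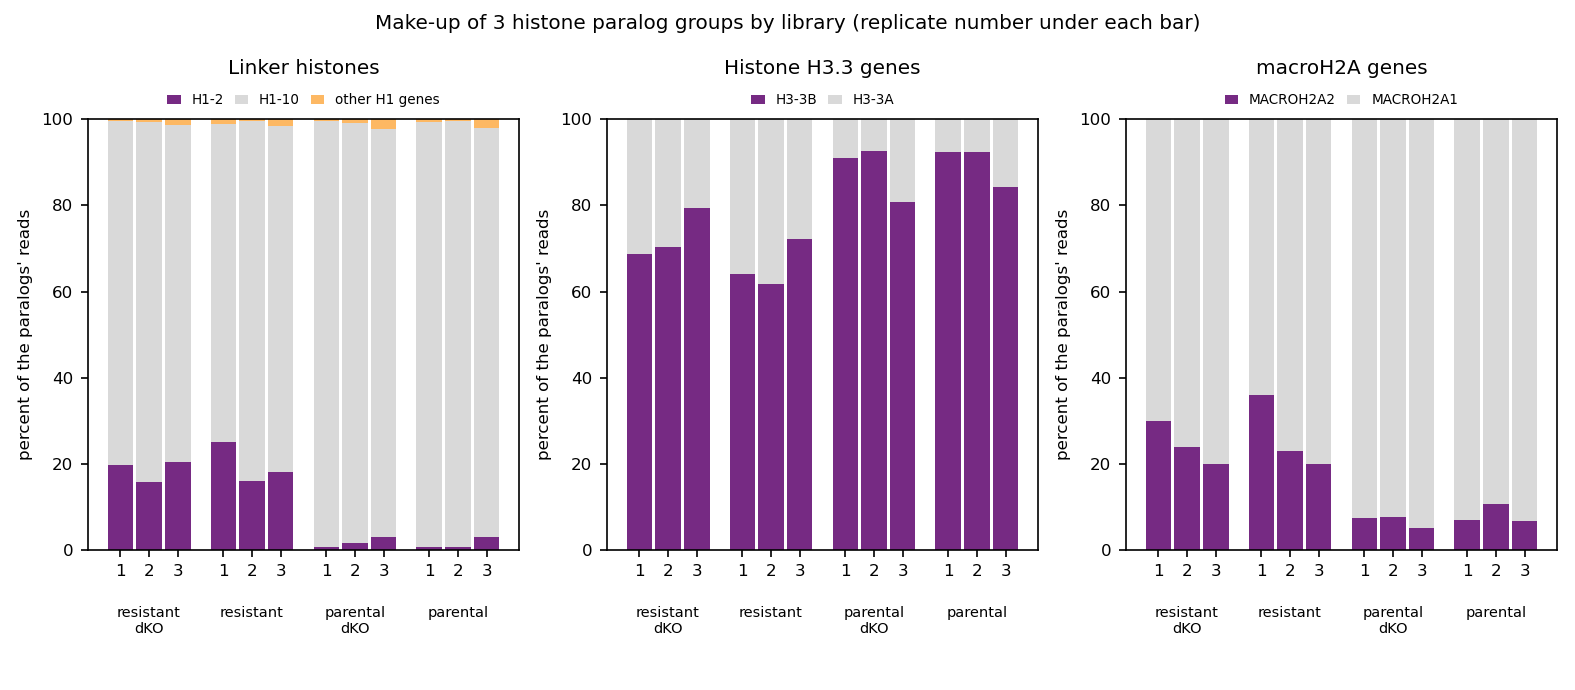
Share of reads held by each gene of 3 paralog groups, in percent of the reads of that group, with 1 bar per library and the replicate number under it. The H1-2 segment is at least 15.6% in the 6 libraries of the resistant line and at most 3.05% in the 6 of the parental line, and the MACROH2A2 and H3-3A segments are larger in the resistant line as well.

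H3-3B (ENSG00000132475, chromosome 17, 75776434 to 75785893) and H3-3A (ENSG00000163041) encode the same protein, histone H3.3, which replaces H3 outside replication. H3-3B had 165, 242 and 261 CPM in resistant libraries, against 1401, 1542 and 666 CPM in parental libraries, with no overlap, and its log2 fold change was -2.43 ± 0.47 (SE, adjusted p = 0.00254). Between the dKO groups it had 325, 228 and 480 CPM in resistant dKO libraries, against 1354, 1312 and 467 CPM in parental dKO libraries. Replicate 3 of each group met there, so those groups overlapped, and the log2 fold change was -1.60 ± 0.46 (adjusted p = 0.0232); without replicate 1 or 2 of either dKO group the adjusted p was 0.073 to 0.096.

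H3-3A had 92.6, 150 and 101 CPM in resistant libraries, against 114, 129 and 125 CPM in parental libraries (log2 fold change -0.10 ± 0.25, adjusted p = 0.81). With the knockout it had 148, 95.6 and 124 CPM in resistant dKO libraries, against 132, 105 and 112 CPM in parental dKO libraries (0.08 ± 0.25, adjusted p = 0.854). H3-3B thus held 68.8% to 79.5% of the H3.3 reads in resistant dKO and 61.8% to 72.1% in resistant libraries, against 80.7% to 92.6% in parental dKO and 84.2% to 92.5% in parental libraries. The summed H3.3 reads averaged 337 ± 70 CPM in resistant cells and 1325 ± 470 CPM in parental cells (SD, n = 3). Of the 50-base stretches, 4.0% of those of H3-3B and 11.7% of those of H3-3A occur in other genes, and how such reads were counted is not given in the sources used here.

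MACROH2A2 (ENSG00000099284, chromosome 10, 70052796 to 70112280) and MACROH2A1 (ENSG00000113648) encode macroH2A, an H2A with a large extra domain found on silent chromatin. MACROH2A2 had 71.4, 62.3 and 46.5 CPM in resistant libraries, against 13.2, 17.7 and 8.44 CPM in parental libraries, a mean 4.57 times as high. With the knockout it had 70.5, 52.9 and 69.2 CPM in resistant dKO libraries, against 13.7, 13.6 and 7.01 CPM in parental dKO libraries. Neither pair overlapped, and the log2 fold changes were 2.19 ± 0.34 (SE, adjusted p = 0.000615) and 2.49 ± 0.34 (adjusted p = 0.000359).

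MACROH2A1 had 127, 208 and 185 CPM in resistant libraries, against 180, 150 and 116 CPM in parental libraries (log2 fold change 0.22 ± 0.29, adjusted p = 0.602), and 165, 168 and 278 CPM in resistant dKO libraries, against 173, 164 and 134 CPM in parental dKO libraries. MACROH2A2 held 19.9% to 29.9% of the macroH2A reads in resistant dKO and 20.0% to 35.9% in resistant libraries, against 4.96% to 7.63% in parental dKO and 6.78% to 10.6% in parental libraries. The share was thus higher in each of the 6 libraries of the resistant line than in each of the 6 parental ones.

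Of the 21 tested replication-dependent genes, 4 were higher and 0 lower in resistant cells, with a median log2 fold change of 0.73, against 0.02 over all genes tested. With DESeq2 the replication-dependent genes called were the same 4 and H3C6, which was higher. In edgeR with a filter of 1 count H3C6 passed as higher, and H2BC13 passed as lower (log2 fold change -2.40, adjusted p = 0.0177). H2BC13 was also called lower with the replicate block over all libraries (-2.73, adjusted p = 0.0376). In the first edgeR fit 8 of the 21 had an unadjusted p under 0.05, 38.1% against 40.1% of all genes tested. By core histone, 1 of 9 H2B genes and 2 of 4 H4 genes were higher, and of 3 H2A and 3 H3 genes none passed. The 17 that did not pass had log2 fold changes of -2.43 to 2.75, 13 of them above 0.

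H2BC12 (chromosome 6, 27146418 to 27146798), an H2B gene, had 5.19, 3.84 and 2.37 CPM in resistant libraries, against 0.956, 0.833 and 0.777 CPM in parental libraries (log2 fold change 2.14 ± 0.46 SE, adjusted p = 0.00444). In the knockout pair it had 5.69, 4.32 and 5.44 CPM in resistant dKO libraries, against 0.701, 1.55 and 1.72 CPM in parental dKO libraries (1.96 ± 0.45, adjusted p = 0.00748). The groups did not overlap in either pair, but 74.1% of its 50-base stretches occur in other genes, so its counts are uncertain. H4C9 (chromosome 6, 27138588 to 27139881), an H4 gene close by, had 1.98, 1.89 and 1.26 CPM in resistant libraries, against 0.418, 0.448 and 0.518 CPM in parental libraries (1.87 ± 0.48, adjusted p = 0.0118). Among dKO libraries H4C9 had 3.02, 2.05 and 2.22 CPM in resistant dKO libraries, against 1.15, 0.581 and 0.46 CPM in parental dKO libraries (1.71 ± 0.46, adjusted p = 0.0174). These groups did not overlap, and in the knockout pair the adjusted p was 0.079 without resistant dKO replicate 1, 0.061 without parental dKO replicate 2 and 0.053 without parental dKO replicate 3. The H4C9 call in that pair was also lost with a filter of 1 count (0.058), with the compared libraries alone (0.062) and without the libraries numbered 3 of the parental line (0.066) or of all groups (0.086).

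H4C8 (chromosome 6, 26277609 to 26285638), an H4 gene of the same cluster, had 2.51, 0.975 and 0.578 CPM in resistant libraries, against 0, 0.32 and 0.362 CPM in parental libraries (log2 fold change 2.52 ± 0.82 SE, adjusted p = 0.0359). This call rested on 43, 16 and 11 reads in resistant cells against 0, 5 and 7 in parental cells, and was lost without replicate 1 or 2 of either group (adjusted p 0.057 to 0.171; log2 fold change 1.72 without resistant replicate 1). It was also lost with the compared libraries alone (0.060), with the replicate block over all libraries (0.060) and without both parental libraries numbered 3 (0.0503). Among dKO libraries H4C8 had 1.63, 0.665 and 1.11 CPM in resistant dKO libraries, against 0.601, 0.839 and 0.575 CPM in parental dKO libraries, which overlapped (0.76 ± 0.74, adjusted p = 0.488). H2BU1 (chromosome 1, 228458107 to 228460470) is an H2B gene of a small cluster that its symbol alone, and not its stem-loop, puts outside the replication-dependent class. It had 4.61, 1.89 and 0.894 CPM in resistant libraries, against 0.597, 0.192 and 0.725 CPM in parental libraries (2.25 ± 0.72, adjusted p = 0.0329). With the knockout H2BU1 had 4.31, 5.54 and 1.85 CPM in resistant dKO libraries, against 1.20, 0.968 and 0.402 CPM in parental dKO libraries (2.17 ± 0.69, adjusted p = 0.0375). Its groups did not overlap, and its calls were lost without replicate 1 or 2 of either group compared (adjusted p 0.052 to 0.17), and in the knockout pair also without resistant replicate 2 (0.051), parental dKO replicate 3 (0.094) or both parental libraries numbered 3 (0.104). Without resistant replicate 1 its log2 fold change between resistant and parental cells was 1.43.

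Summed over the 66 replication-dependent genes, resistant libraries had 61.2, 52.5 and 34.3 CPM, against 13.6, 21.8 and 26.6 CPM in parental libraries, a mean 2.39 times as high. The knockout pair had 64.2, 40.5 and 53.9 CPM in resistant dKO libraries, against 11.1, 33.0 and 23.3 CPM in parental dKO libraries, 2.35 times as high. The resistant line lay above the parental line in both pairs. Without H1-2 the sums averaged 33.6 ± 12.7 CPM in resistant cells and 18.8 ± 5.9 CPM in parental cells (SD, n = 3), 1.78 times as high, and the groups overlapped. The knockout pair without H1-2 averaged 34.3 ± 7.4 CPM in resistant dKO cells and 20.7 ± 10.0 CPM in parental dKO cells (SD, n = 3). This was 1.66 times as high, and these groups overlapped as well. These sums rested on 221 to 1297 reads per library.

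Within groups, the order of the libraries by summed replication-dependent histone reads was that of the S-phase sum in 1 of the 4, the parental cells. Resistant replicate 1 had the lowest S-phase sum of all libraries, 890 CPM, and the second highest histone sum; resistant replicate 3 had 3084 CPM and the lowest histone sum of its line. H2AZ1, H2AZ2 and H2AX encode H2A variants that dividing cells make. H2AZ1 had 90.7, 250 and 256 CPM in resistant libraries, against 135, 147 and 289 CPM in parental libraries, and 154, 189 and 225 CPM in resistant dKO libraries, against 104, 98.2 and 254 CPM in parental dKO libraries. H2AX, the H2A variant phosphorylated at DNA breaks, had 50.8, 128 and 126 CPM in resistant libraries, against 72.2, 124 and 159 CPM in parental libraries, and 83.3, 93.3 and 245 CPM in resistant dKO libraries, against 42.9, 88.0 and 159 CPM in parental dKO libraries. The library with the highest S-phase sum also had the highest H2AZ1 level in 4 of 4 groups, the highest H2AX level in 3, the highest H2AZ2 level in 3 and the highest replication-dependent sum in 1. The difference between these counts was not tested. The part of S-phase content in the differences between groups was not tested.

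**Figure D3:**
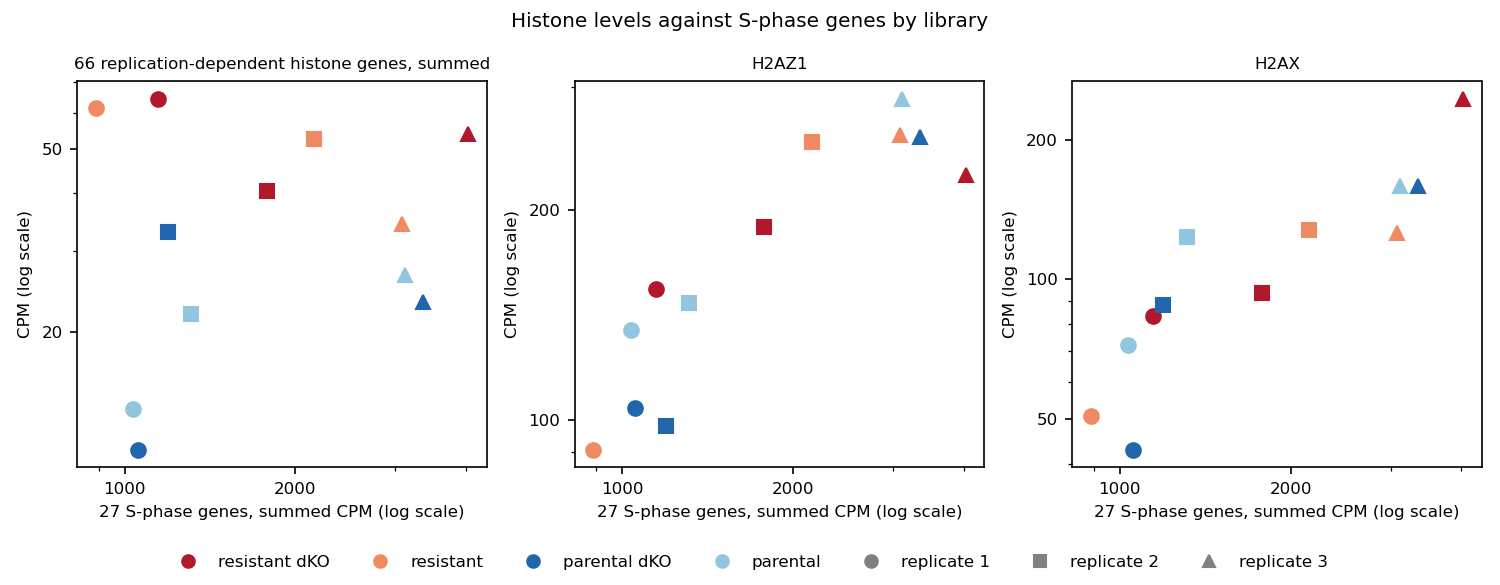
Summed level of the 66 replication-dependent histone genes, and levels of H2AZ1 and H2AX, each against the summed level of 27 S-phase genes, in CPM on log scales; each point is a library, coloured by group, with the replicate number as its symbol. H2AZ1 and H2AX are highest among libraries with high S-phase sums, while in the first panel resistant replicate 1 joins the lowest S-phase sum, 890 CPM, to a histone sum of 61.2 CPM.

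H2AZ2, the second H2A.Z gene, had 67.1, 114 and 103 CPM in resistant libraries, against 94.6, 102 and 176 CPM in parental libraries, and 79.8, 77.9 and 103 CPM in resistant dKO libraries, against 74.7, 80.7 and 139 CPM in parental dKO libraries. H2AJ, an H2A gene reported to accumulate in senescent cells, had 31.2, 43.4 and 23.5 CPM in resistant libraries, against 25.3, 37.1 and 39.0 CPM in parental libraries, and 45.5, 35.0 and 34.3 CPM in resistant dKO libraries, against 30.8, 36.1 and 41.4 CPM in parental dKO libraries. The groups overlapped for H2AZ1, H2AZ2, H2AX and H2AJ in both pairs, and their log2 fold changes between resistant and parental cells were 0.07, -0.39, -0.22 and -0.05, with adjusted p of 0.931, 0.402, 0.79 and 0.916. The pseudogenes H2AZ2P1, H2BC19P and H2BC20P and the neighbours H1-10-AS1 and H2AZ1-DT did not pass in edgeR either, with fold changes of -2.14, -0.27, 0.08, 0.54 and -0.11 on the log2 scale. DESeq2 called H2AZ2P1 lower in resistant cells (adjusted p = 0.0468).

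Among knockout libraries, 6 histone genes differed between the resistant and the parental line, 5 higher and 1 lower, where 23.9% of all genes tested changed. They were the genes of the first comparison without H4C8. Of the 21 replication-dependent genes 3 were higher and 0 lower, with a median log2 fold change of 0.83, and 5 had an unadjusted p under 0.05, 23.8% against 37.2% of all genes tested; with DESeq2 H2BC11 passed as well (adjusted p = 0.0445). This pair of groups shares no library with the first pair, but the 2 pairs compare the same lines.

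**Figure D4:**
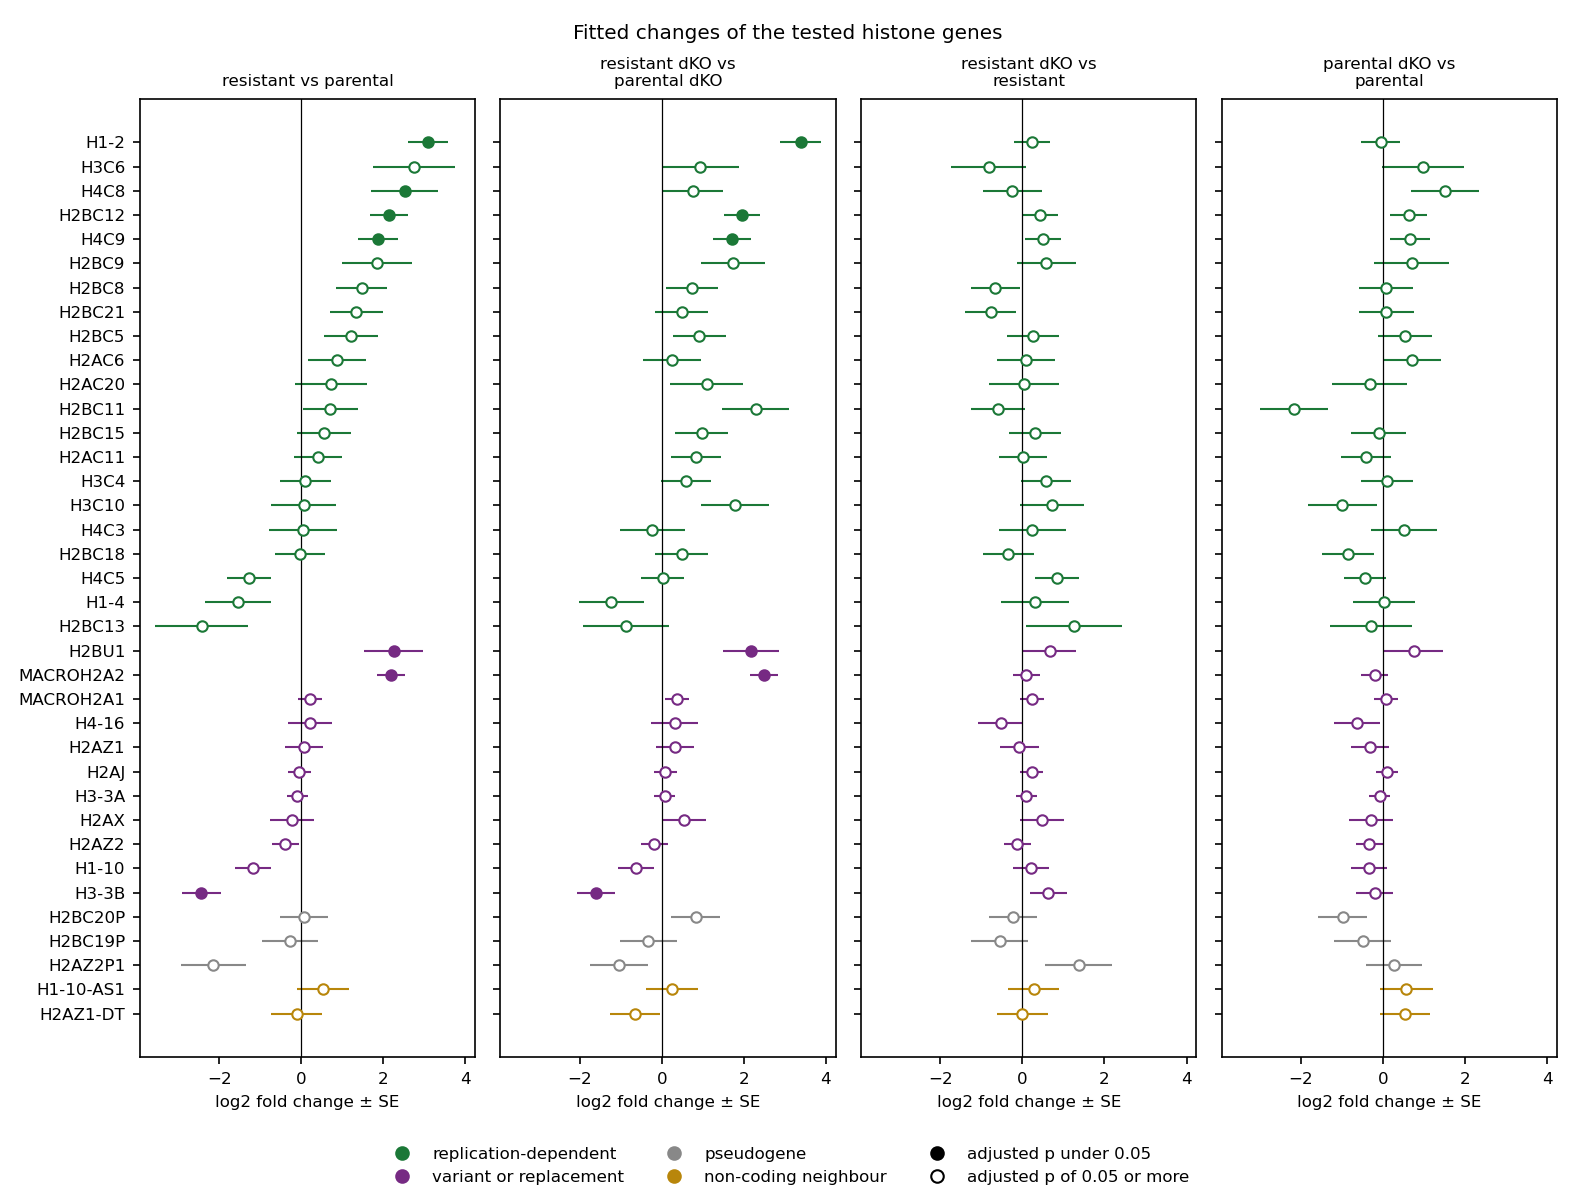
Fitted log2 fold changes ± SE of the 37 tested histone genes in 4 comparisons, ordered by class and then by the first comparison; filled points passed the test. Filled points occur in the 2 comparisons of the resistant with the parental line, 7 and 6 of them, and none occur in the 2 comparisons of knockout with no knockout.

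No tested histone gene passed for the double knockout itself in either line. In parental cells 0 of 37 passed in edgeR and 0 in DESeq2, and 0% of all genes passed in edgeR; 1 histone gene, H2BC11, had an unadjusted p under 0.05 (parental dKO 0, 0.129 and 0.172 CPM, parental 0.239, 0.512 and 0.621 CPM). A fit that also took out replicate differences inside each line pairs the parental libraries. It called 0 histone genes in parental cells, where 0.858% of all genes passed. In resistant cells 0 of 37 passed in edgeR, where 0.212% of all genes did, and 0 in DESeq2, with 0 at an unadjusted p under 0.05 in edgeR. The fit with replicate differences taken out called 0 there as well, where 5.23% of all genes passed. The test of the difference between the knockout's effects in resistant and in parental cells passed for 0 histone genes and for 0.0279% of all genes in edgeR, with 0 histone genes at an unadjusted p under 0.05 and 0 called by DESeq2. The 7 genes of the first comparison had knockout log2 fold changes of -0.24 to 0.66 in resistant cells and -0.20 to 1.52 in parental cells.

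Of 17 genes for transcription and 3′ processing of histone mRNA, 0 were higher and 3 lower in resistant cells, where 15.2% of all genes tested were higher and 12.8% lower. Of the 17, 14 had log2 fold changes below 0 (median -0.47, against 0.02 over all genes). The 3 were TUT7, an enzyme that adds uridines to histone mRNA for its decay (16.5 CPM in resistant cells against 34.2 in parental cells, log2 fold change -1.06, adjusted p = 0.00675), NELFE, a subunit of the elongation factor NELF (74.6 CPM in resistant against 144 in parental cells, -0.95, adjusted p = 0.0449), and UPF1, a helicase of RNA decay (153 CPM in resistant against 244 in parental cells, -0.68, adjusted p = 0.0398). SLBP, which binds the stem-loop, averaged 46.9 CPM in resistant cells and 67.4 CPM in parental cells (adjusted p = 0.321), and NPAT, the activator of histone gene transcription, 20.3 CPM in resistant cells and 21.3 CPM in parental cells (adjusted p = 0.875). Of 32 histone chaperone and deposition genes, 0 were higher and 3 lower: RBBP4, a histone-binding subunit (-0.71), UBN1, a subunit of the HIRA complex that deposits H3.3 (-0.75), and EP400, a remodeller that places H2A.Z and H3.3 (-0.85). Among dKO libraries TUT7 was lower in the resistant line in the first list (-1.05, adjusted p = 0.00815), and UBN2, a relative of UBN1 in the same complex (-1.08, adjusted p = 0.0447), and EP400 (-0.68, adjusted p = 0.0457) in the second. Of 27 S-phase genes, POLA1, a DNA polymerase subunit, was lower in resistant cells (-1.27) and 0 passed among dKO libraries, with 1 at an unadjusted p under 0.05. Of the 27, 22 had log2 fold changes above 0 in each of these 2 comparisons. The medians were 0.38 between resistant and parental cells and 0.48 among dKO libraries, against 0.02 and -0.002 over all genes. Of 19 RNAs that carry no tail, 5 could be tested and SNORD3A, a small nucleolar RNA, was higher in resistant cells (1.92, adjusted p = 0.0186). Among dKO libraries 0 of these RNAs passed, with 0 at an unadjusted p under 0.05. Their sum ran from 33.8 to 72.5 CPM over the libraries. Of the 19, 3, 3, 3 and 2 averaged at least 1 CPM in resistant dKO, resistant, parental dKO and parental cells. RN7SK, RN7SL2, RMRP and RPPH1 were among those without a read in any library. How such RNAs were counted is not known, so the sum does not measure the untailed RNA that the libraries hold. Between resistant and parental cells DESeq2 called 0 higher and 3 lower in the first list, 0 and 4 among the chaperones, 1 and 1 among S-phase genes and 1 and 0 among RNAs without a tail. Among dKO libraries it called 1 higher and 2 lower in the first list, 0 and 4 among the chaperones and 0 in the other lists. The share of all genes that DESeq2 called is not given here, so its counts have no background beside them. In the 2 comparisons of knockout with no knockout 0 genes of these 4 lists passed in edgeR and 0 in DESeq2, and 1, an RNA without a tail, had an unadjusted p under 0.05 in edgeR, in parental cells.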

How the data were processed

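The authors deposited a table of unnormalized gene counts. Its reads were trimmed with Trim Galore 0.6.10, aligned with STAR 2.7.10a to GRCh38 and counted with featureCounts 2.0.1, going by the submitters' processing notes. Which annotation and strand setting were used, and what was done with multi-mapping reads, is not given in the sources used here, so near-identical, overlapping and antisense genes may share counts. Oligo-dT selection and a directional kit are given in the labels' protocols. Groups and replicate numbers came from the sample titles; 2 columns with a misspelled line name were matched to resistant replicates 2 and 3. The table held 59542 rows with 59498 identifiers, and 44 identifiers stood on 2 rows with 0 reads; 107 of 109 members were found in GENCODE release 29. No 2 libraries of a group agreed within sampling noise (chi-square of 26.8 to 205 per degree of freedom), and each counts once.

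From the counts, 17947 genes were kept by filterByExpr in edgeR 4.0.16 (R 4.3.3), scaled with TMM factors and fitted in 1 model of all 12 libraries with a mean per group; 5 contrasts were tested with the quasi-likelihood test (robust) and Benjamini-Hochberg adjustment over all genes at 0.05. The test was checked on simulated data. The SE is the absolute log2 fold change divided by the square root of F. Replicate numbers were checked by correlating deviations from group means: same-numbered parental dKO and parental libraries gave 0.73, 0.87 and 0.85, so those numbers were taken as pairs; resistant dKO and resistant libraries gave 0.60, -0.27 and 0.71, and the 2 lines gave -0.45 to 0.19, which were not.

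The fit was repeated with DESeq2 1.42.0, with median-of-ratios factors or no factors, with a filter of 1 count or of 1 CPM in 3 libraries, on the compared libraries alone, with the replicate number as a block over all libraries or, for the knockout comparisons, within each line, and without each library in turn. A gene that the rule for members also takes is not reported here and is in no count or sum of members. The members and gene lists were chosen with earlier results of these data known. Named with values per library are members that passed any test, those with at least 50 CPM in a group, and their paralogs; of the lists, up to 4 genes per comparison that passed with at least 1 CPM, and SLBP and NPAT.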

Additional observations from a re-analysis of the deposited data

How the results depend on the processing

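Between resistant and parental cells 5 to 9 histone genes passed when each library was left out in turn, and the calls of H1-2, MACROH2A2, H3-3B, H2BC12 and H4C9 kept their direction and their side of the threshold in all 21 alternatives, 2 of them chosen after the data were seen. Among dKO libraries 3 to 7 passed, and H1-2, MACROH2A2 and H2BC12 did so in all 21. The count of 3 came without resistant dKO replicate 1. Counts between the lines in this section stand without the share of all genes that passed in the same fit. They show how far the calls depend on the fit, and not that histone genes differ from other genes. For the 7 genes of the first comparison, no change that passed in any of the fits was reversed in another. Their knockout changes passed in no fit, and some of these changed sign, such as that of H1-2 in parental cells (log2 fold change -0.53 to 0.40). The summed replication-dependent levels moved by less than 1 SD with library size alone. With a filter of 1 count 11 histone genes passed between resistant and parental cells. Among those not called in the first fit, only H3-5 was newly brought in by this filter. The rest had been tested in the first fit and had not passed. The adjusted p also fell for the 7 genes of the first comparison except H4C9, for which it rose. The replicate block within each line gives no test between the lines, because it sets library 1 of one line against library 1 of the other; it was used for the knockout comparisons alone. In resistant cells, whose numbers are not pairs, 939 of all genes tested passed for the knockout with it, against 38 without it. With the replicate block over all libraries 8 histone genes passed between resistant and parental cells and 7 among dKO libraries. For the knockout in either line, and for the difference of its effects, 0 histone genes passed in any alternative run. The 4 libraries numbered 3, left out together after the data were seen, left 9 histone genes called between resistant and parental cells and 5 among dKO libraries. Scaling by library size alone moved the median of all genes by 0.15 on the log2 scale among dKO libraries. Core histone genes of a few reads per library limit these counts: H2BC12 shares most of its sequence with other genes, and H4C8, H4C9 and H2BU1 rest on at most 100 reads per library.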
